A study of Mus musculus with 2 samples.

Results

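The integrin and laminin genes of mouse CT26 cells were examined in 1 library from decitabine-treated (DAC) cells and 1 from control (Ctrl) cells. Members were the genes whose GENCODE symbols begin with Itga or Itgb and name an integrin subunit, or name a laminin chain (Lama, Lamb or Lamc with a digit). The genes for integrin-binding proteins (Itgb1bp and Itgb3bp) and the integrin-like gene Itgbl1, which encodes no subunit, were left out. Of the 24223 genes in the count tables, 32 were members, comprising 15 integrin alpha subunits, 8 integrin beta subunits and 9 laminin chains. Itga8, Itga9, Itgam, Itgb2l, Lama1 and Lama4 were not among the matched genes of the count tables, so they could not be analysed. The cells, CT26, are an established mouse colon cancer line of BALB/c origin, and DAC is a nucleoside drug that depletes DNA methyltransferases and so lowers DNA methylation. The treated cells received 1 μM DAC in 3 doses given 24 h apart and were harvested 24 h after the drug was removed, and the control cells were handled in parallel without it. The series holds no replicate library, so no difference below has a replicate check, no p-value could be computed, and each difference is one between 2 libraries.

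Integrins are receptors built from 1 alpha and 1 beta subunit that span the cell membrane, bind matrix proteins or proteins on other cells, and connect them to the cytoskeleton. The alpha subunit largely sets the ligand, and a subunit without its partner is generally not carried to the surface. Laminins are trimers of an alpha, a beta and a gamma chain that form the scaffold of basement membranes, the sheets beneath epithelia. In the gut, epithelial cells hold on to laminins through integrins that contain the alpha3 or alpha6 subunit, and the pair of alpha6 with beta4 anchors hemidesmosomes. Integrins with beta2 belong to white blood cells, and those with beta7 to lymphocytes that home to the gut.

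Levels are given as CPM, the counts per 1e6 counts of a library after TMM scaling, and differences as the CPM ratio of DAC to Ctrl. A gene was tested if it reached 1 CPM in at least 1 library, which was 37.6 counts in DAC and 32.0 in Ctrl. It was then called higher or lower if the ratio was at least 2 or at most 0.5 and its exact 95% counting interval (Clopper-Pearson, in parentheses after each ratio) excluded a ratio of 1. These intervals cover counting error only, and with 1 library a group they leave out variation between cultures and libraries. They can be too narrow even for counting error, since PCR reads without molecular identifiers are not independent molecules. A gene that reached 1 CPM in only 1 library was tested through the library where it was higher. The libraries held 35163420 (DAC) and 34221886 (Ctrl) counts, of which the members took 0.360% and 0.398%. Of the markers of colon epithelium, Cdh1 had 0 counts in Ctrl and 9 in DAC, Vil1 had 0 and 12, and Krt8 had 5 and 4445, Krt18 had 1797 and 3579, and the mesenchymal gene Vim had 36138 and 48746. Cdx2 had 4 counts in Ctrl and 22 in DAC, Cldn7 2 and 2, Krt19 12 and 58, Krt20 593 and 1548, and Lgals4 76 and 182. Of the 10 fibroblast markers 8 were tested, among them Col1a2 with 52873 and 36561 counts. The labelled colon origin was thus carried in Ctrl mainly by Krt18 and Krt20. Cdh1 and Vil1 were at 0 in Ctrl and near 0 in DAC, and Cdx2 and Cldn7 were under 1 CPM in both libraries.

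Of the 32 members, 19 were tested, and 3 integrin genes were higher in DAC: Itgb2, Itgb4 and Itga7. None was lower. Across all genes, 13545 were tested, of which 10.8% were higher, 5.29% were lower and 16.1% were either. The members thus had 15.8% called, close to the 16.1% over all genes, and this share is not a result about the members. The median log2 ratio was -0.22 over the 19 members and -0.018 over all tested genes. The 12 integrins tested had a median of 0.13 and the 7 laminins one of -0.36, with 0 of the 7 laminins called. Scaling by library totals instead of TMM factors raises every log2 ratio by 0.19. It gave 4 members higher and 0 lower, with Itga3 added, against 13.9% and 3.37% of all genes. After centring on GC content, 3 members were higher and 2, Lama5 and Lamb2, were lower, against 10.3% and 4.43% of all genes.

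**Figure D1:**
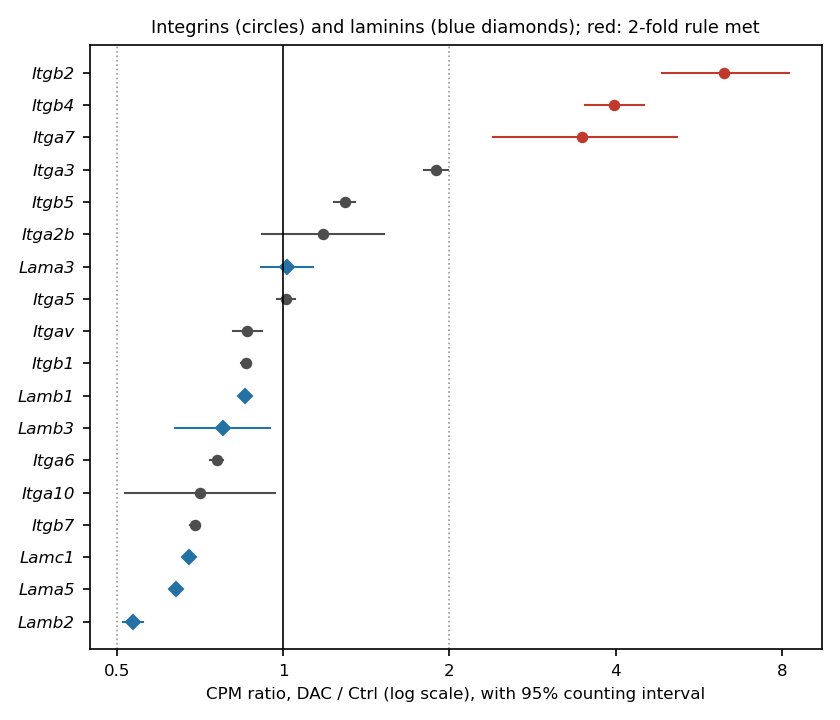
CPM ratio of DAC to Ctrl (x axis, log scale) of 18 of the tested members, as circles for integrins and blue diamonds for laminins, with bars for the 95% counting interval. The red points Itgb2, Itgb4 and Itga7 lie beyond the dotted line at 2, and Lamb2 lies nearest to the line at 0.5.

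Among the laminin receptors, the subunit that pairs with Itga6 in hemidesmosomes differed most. Itgb4, the beta subunit with a long cytoplasmic tail that binds the keratin linker plectin, had 317 counts in Ctrl and 1480 in DAC, or 9.90 and 39.4 CPM. Its ratio was 3.98 (3.52 to 4.51). Itga6, its partner, was the integrin alpha gene with the highest level per length in Ctrl and had 11340 and 10079 counts, a ratio of 0.757 (0.737 to 0.778). The partners therefore differed in opposite directions, and Itgb4 relative to Itga6 was 5.25 times as high in DAC as in Ctrl (Wald counting interval 4.64 to 5.95). Per kilobase of exons, the level of Itga6 was 27.8 times that of Itgb4 in Ctrl and 5.29 times in DAC, or 51.5 and 9.81 times with the length of the longest transcript. Itgb4 thus remained the scarcer subunit in both libraries. Itgb4 lies on chromosome 11 of GRCm38 from 115974709 to 116008412. Its 3 tested neighbors were not called, with Sap30bp at a ratio of 1.03 (0.966 to 1.09), Galk1 at 1.40 (1.28 to 1.54) and H3f3b at 0.611 (0.600 to 0.623). Of 11 epithelial markers, 9 are in the tables, with a summed level of 77.7 CPM in Ctrl and 262 in DAC. Most of the difference in that sum was Krt8, with 0.156 and 118 CPM, and Krt18 had 56.1 and 95.2. Of the 5 tested, 4 were higher, beside 10.8% of all genes. Cldn7 had 2 counts in each library, and Cdh1 and Vil1 were at 0 in Ctrl. The part of epithelial markers in the Itgb4 result was not tested. More cells with Itgb4 RNA cannot be told apart from more RNA per cell.

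Itga3, the alpha subunit of the laminin receptor with beta1, had 2285 counts in Ctrl and 5071 in DAC. Its ratio of 1.89 (1.80 to 1.99) lay just below the 2-fold rule. It passed by library totals, with a log2 ratio of 1.11, and had 0.65 after GC centring. Relative to Itga6, Itga3 was 2.50 times as high in DAC (2.36 to 2.64), so the makeup of the laminin-binding alpha subunits differed between the libraries. Of the summed level per length of the 15 alpha genes, Itga6 held 41.7% in Ctrl and 31.1% in DAC, and Itga3 held 13.3% and 24.7%. Itga7, the alpha subunit of laminin receptors in skeletal muscle, had 36 counts in Ctrl and 147 in DAC, 1.12 and 3.91 CPM. Its ratio was 3.48 (2.40 to 5.16), but its level stayed far under that of Itga3 or Itga6, at 0.148% and 0.505% of the alpha sum. It lies on chromosome 10 from 128933818 to 128958282. On one side of it, Cd63 had a ratio of 0.836, Rdh5 1.07 and Bloc1s1 1.36, and none of these was called. On the other side the nearest tested gene in the tables, the olfactory receptor gene Olfr784 at 129384083, was higher at 4.61 (2.91 to 7.63) with 22 and 119 counts. Of the 5 muscle markers, 3 are in the tables, with summed levels of 1.56 CPM in Ctrl and 5.43 in DAC. Des had 46 and 161 counts, Acta1 4 and 40, and Actn2 0 and 3. The 2 tested, Des and Acta1, were higher, beside 10.8% of all genes, and Acta1 reached 1 CPM in DAC only. The part of the muscle markers in the difference in Itga7 was not tested.

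The largest ratio among the 19 tested members was that of Itgb2, the common beta subunit of the leukocyte integrins. Itgb2 had 67 counts in Ctrl and 494 in DAC, 2.09 and 13.1 CPM, a ratio of 6.28 (4.86 to 8.24), which placed it at percentile 97.2 of the tested genes. It lies on chromosome 10 from 77530252 to 77565708, and of its 5 tested neighbors Fam207a, Adarb1, Pttg1ip and Sumo3 had ratios of 0.782, 1.06, 0.875 and 1.12, while Ube2g2 was lower at 0.432 (0.406 to 0.460). None of the alpha subunits that pair with it and are in the tables reached 1 CPM. Itgal had 5 counts in Ctrl and 0 in DAC, Itgax had 3 and 4, and Itgad had 4 and 14. The Itgb2 level per length was 9.66 times the sum of these 3 genes in Ctrl and 41.1 times in DAC. Of the 50-base stretches in the longest transcript, 15.2% for Itgad and 9.61% for Itgax also occur in another gene, mainly in each other. Of 16 leukocyte markers, 7 are in the tables, with summed levels of 16.6 CPM in Ctrl and 27.2 CPM in DAC, most of it Cd68, with 470 and 809 counts. Ptprc, the marker of all white blood cells, had 3 counts in Ctrl and 0 in DAC. Of the 3 leukocyte markers tested, Coro1a (3 and 63 counts) and Cd79a (19 and 112 counts) were higher, beside 10.8% of all genes. Both reached 1 CPM in DAC only. Of the markers not tested, Lyz2 had 31 counts in Ctrl and 17 in DAC, Cd4 4 and 13, and S100a8 0 and 9. The leukocyte markers thus differed among themselves, with Ptprc at or near 0 in both libraries. Their part in the difference in Itgb2 was not tested.

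The receptors that recognize the RGD motif of fibronectin and vitronectin had ratios nearer to 1. Itga5, the classical fibronectin receptor subunit, had 5487 counts in Ctrl and 6517 in DAC, a ratio of 1.01 (0.976 to 1.05). Its partner Itgb1, shared by most alpha subunits, had 22195 and 22282 counts, a ratio of 0.856 (0.840 to 0.872). Itgav, which binds vitronectin and latent TGF-β, had 2105 and 2126 counts, with a ratio of 0.861 (0.810 to 0.915). The signs of Itga5 and Itgav are not fixed, since GC centring put their log2 ratios at -0.25 and 0.062. Itgb5, the vitronectin receptor beta subunit, had 3351 counts in Ctrl and 5079 in DAC, with a ratio of 1.29 (1.24 to 1.35). Relative to Itgav it was 1.50 times as high in DAC (1.39 to 1.62). The other partners of Itgav were barely detected. Itgb3 had 0 counts in Ctrl and 7 in DAC, Itgb6 had 3 and 6, and Itgb8 had 18 and 23. Itga2b, the platelet subunit that needs Itgb3, had 109 and 151 counts, a ratio of 1.18 (0.917 to 1.52). Counting error therefore covers the difference in Itga2b. All 5 platelet markers are in the tables, with summed levels of 1.16 CPM in Ctrl and 2.34 in DAC. Only Gp1ba (3 and 39 counts) was tested, through its 1.04 CPM in DAC, and it was higher, beside 10.8% of all genes. Of the others, Ppbp had 17 and 16 counts, Gp1bb 8 and 7, Gp9 9 and 20, and Pf4 0 and 6.

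The alpha subunits of the collagen receptors were low or undetected in both libraries. Itga10, which binds collagen with beta1, had 94 counts in Ctrl and 78 in DAC, a ratio of 0.707 (0.517 to 0.965). It shares 32.0% of its 50-base stretches with the overlapping gene Gm42957 on the same strand, so its counts are uncertain. Itga1 had 0 and 3 counts, and Itga11 had 0 and 1. Itga2, the main collagen receptor subunit of epithelia, had 0 counts in Ctrl and 16 in DAC, 0.426 CPM. Against the floor of 3 counts in the Ctrl library its ratio was 4.55, with a lower counting limit of 3.29, but at under 1 CPM it was not tested. In all, 13 members stayed below 1 CPM in both libraries, at no more than 0.562 CPM in Ctrl and 0.612 in DAC. Of these, 4 had 0 counts in Ctrl (Itga1, Itga2, Itga11 and Itgb3) and 2 had 0 in DAC (Itga4 and Itgal). A count of 0 allows up to 0.0937 CPM in Ctrl and 0.0798 CPM in DAC. Of all genes, 1176 in Ctrl and 1240 in DAC had exactly 3 counts, more than with 2 (1076 and 1127) or 4 (596 and 650). A value of 3, as for Itga4, Itgax and Itgb6, or Ptprc, Coro1a and Gp1ba above, therefore need not stand for 3 separate fragments.

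**Figure D2:**
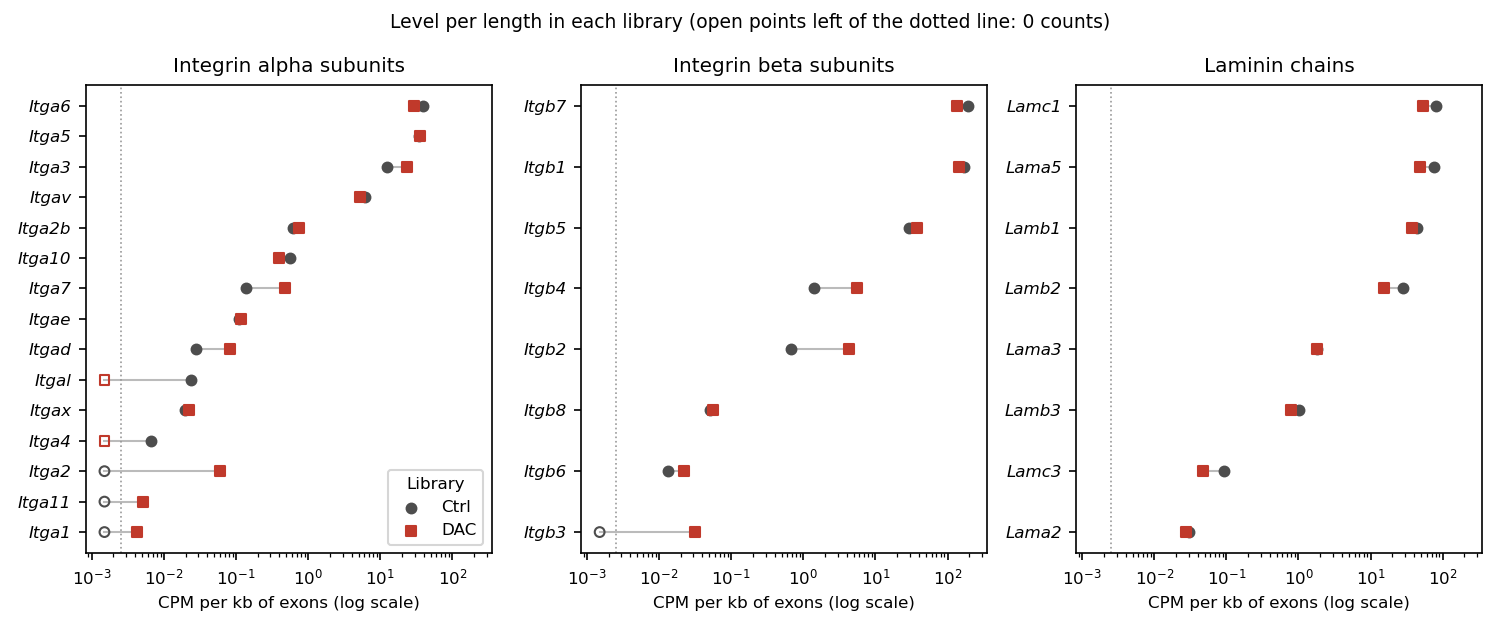
CPM per kilobase of exons (x axis, log scale) of the 15 integrin alpha, 8 integrin beta and 8 laminin genes in Ctrl (gray circles) and DAC (red squares), in order of the Ctrl level, with open points left of the dotted line for 0 counts. Itgb4, Itgb2 and Itga7 show wide gaps between the libraries above 0.1, while Itgb7, Itgb1, Lamc1 and Lama5 stand highest in Ctrl.

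DNA methylation in mammals lies mainly at CG dinucleotides, so the CG content of the start-site windows was counted (RefSeq, GRCm38.p6, 250 bases before to 50 after a gene's start). Such a window was given for 20 of the 32 members and not, among others, for Itga6, Itga7, Itgad, Itgae, Itgal, Itgb2, Itgb3, Itgb4, Lama3, Lamc1 and Lamc3. The motif searched was CG, which reads the same on both strands, and 94.6% of all 32851 windows hold at least 1. Shown are the windows of the abundant Itgb1, Lama5 and Itgb7, and of Itga11 and Itga2, which had no count in Ctrl, with each CG in capitals. They lie at chr8:128685404-128685703 on the plus strand (Itgb1), chr2:180225810-180226109 on the minus strand (Lama5), chr15:102231886-102232185 on the minus strand (Itgb7), chr9:62677605-62677904 on the plus strand (Itga11) and chr13:114932051-114932350 on the minus strand (Itga2).
Itgb1: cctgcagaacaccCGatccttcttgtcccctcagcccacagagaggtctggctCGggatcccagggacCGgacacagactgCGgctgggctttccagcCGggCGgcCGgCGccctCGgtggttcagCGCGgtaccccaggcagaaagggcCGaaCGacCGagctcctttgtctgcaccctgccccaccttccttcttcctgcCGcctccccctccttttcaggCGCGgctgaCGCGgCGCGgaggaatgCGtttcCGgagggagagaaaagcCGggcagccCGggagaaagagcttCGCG
Lama5: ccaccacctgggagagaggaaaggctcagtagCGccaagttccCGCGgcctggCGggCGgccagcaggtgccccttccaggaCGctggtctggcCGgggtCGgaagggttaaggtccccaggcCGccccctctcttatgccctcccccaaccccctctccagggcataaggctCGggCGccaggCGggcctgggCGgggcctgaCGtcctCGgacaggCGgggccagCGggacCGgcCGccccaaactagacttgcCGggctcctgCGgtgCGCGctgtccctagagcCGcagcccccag
Itgb7: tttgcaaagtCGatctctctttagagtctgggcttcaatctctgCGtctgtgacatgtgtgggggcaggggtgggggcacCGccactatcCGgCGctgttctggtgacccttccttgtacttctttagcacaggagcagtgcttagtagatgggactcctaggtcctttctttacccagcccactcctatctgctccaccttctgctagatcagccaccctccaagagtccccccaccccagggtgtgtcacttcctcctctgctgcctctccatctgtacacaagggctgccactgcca
Itga11: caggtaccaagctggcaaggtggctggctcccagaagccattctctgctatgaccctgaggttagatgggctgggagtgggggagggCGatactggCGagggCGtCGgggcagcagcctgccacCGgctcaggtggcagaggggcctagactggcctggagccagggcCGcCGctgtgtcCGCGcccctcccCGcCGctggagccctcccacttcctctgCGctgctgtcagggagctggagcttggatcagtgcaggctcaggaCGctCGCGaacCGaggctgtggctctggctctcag
Itga2: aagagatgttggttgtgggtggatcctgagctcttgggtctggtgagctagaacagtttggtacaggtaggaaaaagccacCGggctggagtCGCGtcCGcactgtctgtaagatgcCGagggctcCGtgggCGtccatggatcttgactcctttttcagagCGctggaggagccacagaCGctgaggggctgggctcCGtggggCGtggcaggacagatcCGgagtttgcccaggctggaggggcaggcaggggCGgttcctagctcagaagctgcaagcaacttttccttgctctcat
The window of Itgb1 holds 27 CG and that of Lama5 holds 24, against a median of 7 over all windows, while that of Itgb7 has 5. The windows of Itga11 and Itga2 hold 16 and 13. Of the 8 members below 1 CPM with a window, 6 have one with at least 10 CG, beside 43.5% of all windows counted singly. The median of these 8 members was 12 CG, below the 15.5 of the 12 tested members, which range from 4 (Lamb2) to 27. Where a member has several windows, the one with most CG was taken, so that Lamb3 stands at 5 although its other window holds 2. Methylation was not measured in these files.

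Both libraries had transcripts for a limited set of complete receptors. Of 24 textbook integrin pairs, 21 have both subunits in the tables, and 8 had both at 1 CPM or more, the same number in each library. They were Itgb1 with Itga3, Itga5, Itga6, Itga7, Itga10 and Itgav, and the pairs Itgav-Itgb5 and Itga6-Itgb4. Described by its scarcer subunit per length, Itga6-Itgb4 had 1.41 CPM per kb in Ctrl and 5.61 in DAC, and Itga3-Itgb1 had 12.5 and 23.6. Itga6-Itgb1 stood at 39.2 and 29.7, and Itga5-Itgb1 at 34.7 and 35.2. In DAC, Itga5-Itgb1 was therefore above Itga6-Itgb1, the reverse of Ctrl, although with the longest transcript's length Itga6 stayed above Itga5 (62.2 against 39.3). Of the 8 pairs, the scarcer subunit was at least 2-fold higher in 2, Itga6-Itgb4 and Itga7-Itgb1, and in 0 at least 2-fold lower. These are RNA levels, and receptor on the surface was not measured.

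**Figure D3:**
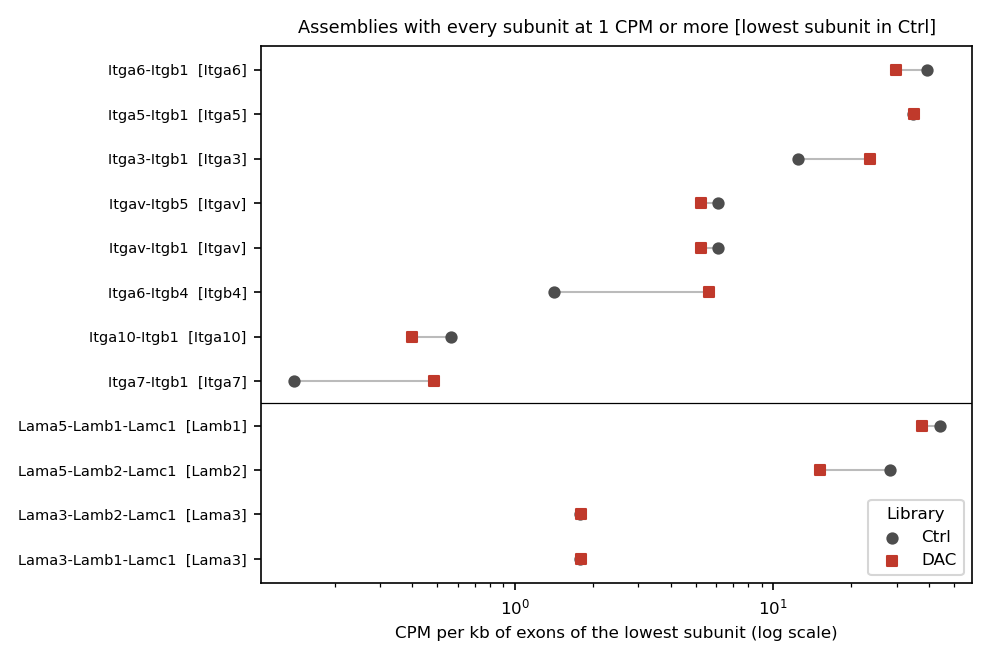
CPM per kilobase of exons of the scarcest subunit (x axis, log scale; name in brackets) for the 8 integrin pairs (above the line) and 4 of the laminin trimers (below) with every subunit at 1 CPM or more, in Ctrl (gray circles) and DAC (red squares). Itga6-Itgb4 stands at 1.41 in Ctrl and 5.61 in DAC, and the Lama5-Lamb2-Lamc1 trimer at 28.3 and 15.1.

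Itgb7, the beta subunit of gut-homing lymphocyte integrins, was abundant without a partner. It had 17254 counts in Ctrl and 14024 in DAC, a ratio of 0.693 (0.677 to 0.708), and per kilobase it ranked above every other member in Ctrl (195 CPM per kb, against 170 for Itgb1) and below Itgb1 alone in DAC (135 against 145). It held 49.1% of the summed level of beta subunits in Ctrl and 41.1% in DAC. Its alpha partners were near 0, Itga4 with 3 and 0 counts and Itgae, which binds E-cadherin, with 16 and 20. Cdh1, the gene of that ligand, had 0 and 9 counts. None of the 50-base stretches of Itgb7 occurs in another gene, and no annotated gene overlaps it on chromosome 15 from 102215995 to 102231944. Per length, Itgb7 was 1680 times the sum of these 2 alpha genes in Ctrl and 1160 times in DAC.

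The laminin chains formed 1 abundant set and 1 scarce set, and the abundant chains had ratios below 1 without reaching the 2-fold rule. Lama5, the main alpha chain of adult basement membranes, had 27596 counts in Ctrl and 20684 in DAC, a ratio of 0.639 (0.627 to 0.650). Lamc1, the gamma chain of most laminins, had 21068 and 16684, a ratio of 0.675 (0.661 to 0.689). Lamb1 had 13992 and 14014 counts, a ratio of 0.854 (0.834 to 0.874), while Lamb2, the other beta chain of these trimers, had 5509 and 3458 and came nearest to the 2-fold rule at 0.535 (0.513 to 0.558). None of the 4 was called. Relative to Lamb1, Lamb2 was 1.60 times lower in DAC, with a counting interval (1.52 to 1.68) that excluded a ratio of 1. The trimer Lama5-Lamb2-Lamc1, at its scarcest chain, had 28.3 CPM per kb in Ctrl and 15.1 in DAC, and Lama5-Lamb1-Lamc1 had 44.1 and 37.6. After GC centring, Lama5 and Lamb2 had log2 ratios of -1.05 and -1.17 and were called lower. By library totals they had -0.46 and -0.71. Under all 5 scalings 5 of the 7 laminins had negative log2 ratios, while the sign of Lama3 changed between scalings.

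Lama3 and Lamb3, chains of laminins found beneath epithelia, were scarcer. Lama3 had 612 counts in Ctrl and 730 in DAC, a ratio of 1.02 (0.912 to 1.13). Lamb3 had 216 and 197 counts, with a ratio of 0.777 (0.637 to 0.947). Neither was called. Relative to Lama3, Lama5 was 1.59 times lower in DAC (1.43 to 1.77), and its level per length was 42.5 times that of Lama3 in Ctrl and 26.7 times in DAC. Lama2 and Lamc3, chains of muscle and of peripheral tissues, had 16 and 18 counts in Ctrl and 17 and 11 in DAC. Of 14 laminin trimers, 9 have all chains in the tables and 5 had all at 1 CPM or more in each library.

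Other basement membrane genes are the partners of laminins in the matrix. Of 18 genes on that list, 12 were tested, and 2 were higher and 0 lower, beside 10.8% and 5.29% of all genes, with a median log2 ratio of 0.28. Nid1, which links laminin to collagen IV, had 981 counts in Ctrl and 3182 in DAC, a ratio of 2.76 (2.57 to 2.97). Smoc1, a calcium-binding matrix protein, had 3 and 81, a ratio of 23.0 (7.60 to 114) that rests on a Ctrl value of 3, which need not stand for separate fragments. Tinagl1, the most abundant per length, had 16812 and 14424 counts, a ratio of 0.731 (0.715 to 0.748). Agrn and Col4a1 were just under the rule at 1.90 (1.82 to 1.99) and 1.85 (1.80 to 1.91), Hspg2, the heparan sulfate proteoglycan perlecan, had 0.891 (0.869 to 0.914), and the laminin receptor gene Dag1 had 1.05 (0.999 to 1.10).

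Of 30 other integrin ligands, 18 were tested, of which 6 were higher and 3 lower (median 0.42). Over all tested genes 10.8% were higher and 5.29% lower, with a median of -0.018. Fn1, bound by Itga5-Itgb1, had 210619 counts in Ctrl and 65467 in DAC, 3.78-fold lower (3.74 to 3.81). Tnc was 4.44-fold lower (3.74 to 5.29) with 639 and 169 counts, and Spp1, the most abundant ligand per length, was 2.17-fold lower (2.15 to 2.19) with 151588 and 81852. By library totals or GC centring Spp1 was not called, at log2 ratios of -0.93 and -0.84. Emilin1, Fbn1 and Tgfb1 were among the higher ligands, as were binding partners of the beta2 integrins on other cells. Icam1 and Icam2 had 0 counts in Ctrl and 51 and 54 in DAC. Against 3 counts in the Ctrl library their ratios were 14.5 and 15.3, with lower counting limits of 11.4 and 12.1. F11r, the junction protein JAM-A, had 4 and 82 counts, a ratio of 17.5 (6.57 to 65.6). Of the 6 higher ligands, Icam1, Icam2 and F11r reached 1 CPM in DAC only. The related Jam2 (3 and 25 counts) and Jam3 (8 and 15) were not tested. Fn1 was thus lower while its receptor subunit Itga5 had a ratio of 1.01.

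Inside the cell, 42 of the 43 focal adhesion genes were tested, with 3 higher, 1 lower and a median of -0.043. Over all tested genes 10.8% were higher and 5.29% lower, with a median of -0.018. Csk, a kinase that restrains Src, had 978 counts in Ctrl and 2830 in DAC, a ratio of 2.47 (2.29 to 2.65), and 0.90 on the log2 scale after GC centring, where it was not called. Ptk2b, a relative of focal adhesion kinase, had 16 and 105 counts, and its ratio was 5.59 (3.29 to 10.1). Tns4, a tensin gene, had 25 and 146, a ratio of 4.98 (3.24 to 7.94). Nedd9, a docking protein of the Cas family, was 2.31-fold lower (2.16 to 2.47) with 2528 and 1286 counts. The core linkers were within 2-fold, with talin 1 (Tln1) at 0.593 (0.584 to 0.602), Ptk2 at 1.09 (1.05 to 1.13), Ilk at 1.12 (1.06 to 1.18) and Actn4, the most abundant per length in Ctrl but not in DAC, at 0.603 (0.592 to 0.613). Of the 9 hemidesmosome and integrin-associated membrane genes, all tested, 2 were higher and 0 lower (median -0.083), beside 10.8% and 5.29% of all genes. The tetraspanin Cd9 had 4068 and 10036 counts and a ratio of 2.10 (2.03 to 2.18). Col17a1, the transmembrane collagen of hemidesmosomes, had 6 and 41, a ratio of 5.82 (2.46 to 16.8). Plec, which links Itgb4 to keratins, had 0.944 (0.930 to 0.958), Dst 0.527 (0.518 to 0.537) and Cd151, the tetraspanin of laminin receptors, 0.927 (0.883 to 0.973). Cd63, the most abundant of the 9 per length in Ctrl but not in DAC, where Cd9 was, had 13997 and 13737 counts, with a ratio of 0.836 (0.817 to 0.856). Of the hemidesmosome genes, Itgb4 and Col17a1 were thus higher, although Col17a1 reached 1 CPM in DAC only. Plec was not called, and Dst, at 0.527, came near the rule for lower without meeting it.

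**Figure D4:**
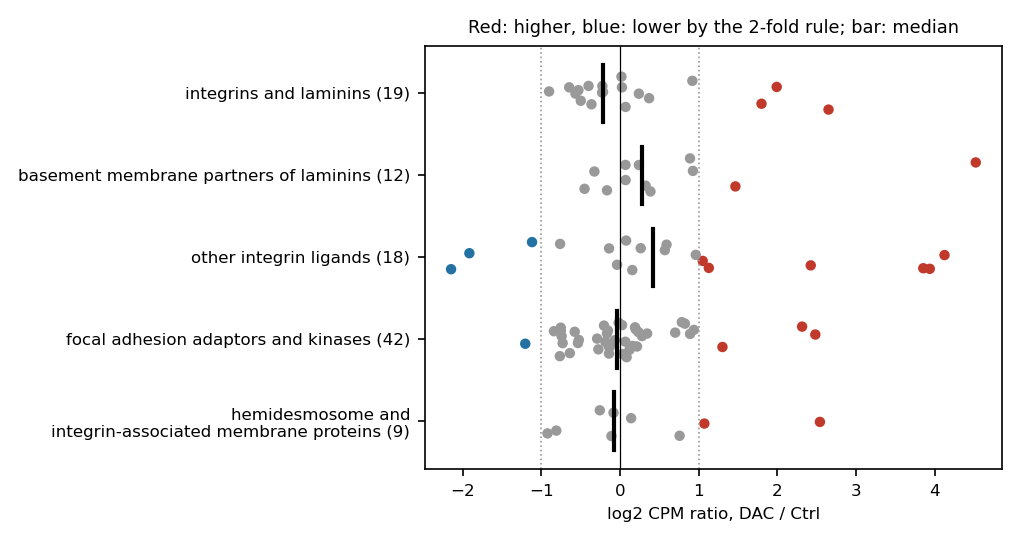
Log2 CPM ratio of DAC to Ctrl (x axis) of each tested gene in the integrins and laminins and 4 partner lists (number tested in parentheses), with red for higher and blue for lower by the 2-fold rule, a black bar for the median and dotted lines at 2-fold. Points are spread vertically for view, and the medians run from -0.22 for the integrins and laminins to 0.42 for the integrin ligands.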

How the data were processed

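RNA-seq of CT26 cells was deposited as 2 tables, and the authors deposited whole-number counts per Ensembl gene without normalization. The paper describes poly-A selection, a TruSeq kit, CASAVA, TopHat and Bowtie, and in the submitters' notes on processing the tools are STAR 2.5.3a, Trim Galore, Cufflinks, StringTie 1.3.1c and DESeq, with mm10. Which route made the counts, the strand setting and the handling of multi-mapped reads are not given in the sources used here.

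Identifiers were matched to GENCODE M21 on GRCm38, the assembly of mm10 (24122 matched, 101 did not). TMM factors came from edgeR 4.0.16 (1.07 for DAC, 0.936 for Ctrl) and the rest from Python 3.11.15 with scipy 1.17.1, pandas 2.3.3 and numpy 2.4.6. Levels between genes were divided by the merged exon length. A count of 0 was taken as 3 counts in a ratio. Relative changes of 2 members carry a Wald interval of the log ratio of their 4 counts. Alternatives were scaling by upper-quartile factors, by size factors of DESeq2 1.42.0 or by library totals, other filters, folds and intervals, GC centring in 20 bins, thinning and prior counts. A count model needs replicates, and with 1 library a group none was fitted.

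The members, lists and tests were chosen with earlier results of these data known. All members are described except 1 gene, which is not reported here. From each partner list, the text names the 3 called genes in each direction whose interval lies farthest from 1 and the gene with the highest level per length summed over both libraries. Agrn, Col4a1, Hspg2, Dag1, Tln1, Ptk2, Ilk, Plec, Dst and Cd151 were named after their values were seen, as were Emilin1, Fbn1 and Tgfb1.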

Additional observations from a re-analysis of the deposited data

How the results depend on the processing

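No paired analysis was possible because each group has 1 library, and for the same reason no library could be left out. By library totals the median log2 ratio was -0.025 over the members and 0.18 over all tested genes, with 4 basement membrane and 6 focal adhesion genes higher. With no minimum CPM the members' median was -0.063, above the -0.11 over all genes, whereas with the minimum it was below. In that setting 32 members were tested and 4 were higher, Itga2 added, and 4 basement membrane genes were higher. At a minimum of 5 CPM, 2 of 16 members tested (Itgb2 and Itgb4, without Itga7), 1 basement membrane gene, 3 integrin ligands, 1 focal adhesion gene and 1 hemidesmosome gene were higher. With a fold of 4, 1 member (Itgb2), 1 basement membrane gene and 1 hemidesmosome gene were higher, and 1 ligand and 0 focal adhesion genes were lower. GC centring gave a members' median of -0.062, against 0.0002 over all tested genes, with 2 members and 2 focal adhesion genes lower. Apart from the alternatives' own filters and folds, the cause was not tested. Over all genes, 1468 were higher and 716 lower of 13545 tested. By library totals they were 1889 and 458 of 13571 tested. With no minimum they were 2672 and 1239 of 24223 tested, and at 5 CPM 684 and 450 of 10795. Of the 13545 genes, they were 579 and 112 with a fold of 4. Where the interval had to lie beyond 2-fold, they were 977 and 403 of the same 13545. After GC centring they were 1391 and 600. No result changed direction past the rule, and 14 of the 19 tested members had the same sign under every scaling. Depth limits the 13 members below 1 CPM, whose differences were not tested.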
